A study of Mus musculus with 8 samples.

Results

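Autophagy is the route by which a cell wraps part of its own cytoplasm in a double membrane, the autophagosome, and delivers it to the lysosome for breakdown. The genes described here encode the machinery that starts, builds, loads and closes the autophagosome. They were taken by symbol from the deposited expression table: every gene named Atg, Ulk or Wipi with a number, every Gabarap or Map1lc3 gene, and Becn1, Pik3c3, Pik3r4, Sqstm1, Optn, Nbr1, Tax1bp1, Rb1cc1, Uvrag, Ambra1, Vmp1 and Wdfy3. The rule found 41 of the 12701 genes in the table.

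RNA was sequenced from alveolar macrophages, which live in the airspaces of the lung, sorted from C57BL/6 mice. Mice were either naive, with no tumor, or carried lung tumors grown from KP cells, a mouse lung tumor line given into the tail vein. The labels name these tumor groups d15 and d35 for the days after transfer, and the groups hold 3 naive, 2 d15 and 3 d35 libraries. The growth protocol lets tumors form for 15 to 30 days, which ends before day 35, and says that KP or KP-GFP cells were used without saying which went into which group. Each library came from RNA of 20000 sorted cells, of which 1 ng was amplified, and whether replicates were separate animals is not stated in the labels. The p-values therefore measure only the spread between these libraries, which may be technical. Values are scaled CPM, a read count per gene adjusted for the depth of its library, and the libraries held 27465745 to 39572173 recovered reads. All 12 alveolar macrophage markers looked for were in the table, with Chil3 at means of 22080 to 33501 scaled CPM and Siglecf at 574 to 719 over the groups. In these bulk samples fewer cells of one type and less RNA per cell cannot be told apart.

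Autophagy begins with the ULK kinase complex, which responds to the nutrient-sensing kinase mTORC1. A phosphatidylinositol 3-kinase complex then marks the membrane, which grows with lipid delivered by ATG2 and ATG9. A conjugation system attaches proteins of the Atg8 family, LC3 and GABARAP, to the membrane, where receptors such as p62 dock cargo. In macrophages the same machinery also takes part in clearing ingested microbes and lipid. It works on proteins, so a level of mRNA does not measure how much autophagy takes place.

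The MiT/TFE transcription factors TFEB, TFE3, MITF and TFEC switch on autophagy and lysosome genes through the palindromic E-box CACGTG. Because genes for MiT/TFE factors changed in these libraries, RefSeq promoter windows (build GRCm38.p6, 250 bases before to 50 after the start site) were searched on both strands. Of the 41 genes, 33 had a window, with 39 windows in all. The letters CACGTG were in 4 of these windows, those of Atg3, Atg5, Atg7 and Atg14, and in 7.15% of all 32851 windows. Extended by a T on the 5′ side, TCACGTG lay in the windows of Atg3, Atg7 and Atg14 and in 3.77% of all windows, and every TCACGTG is also a CACGTG. The full palindrome TCACGTGA was found in Atg3 alone among the 33 genes, and in 0.974% of all windows. The antioxidant response core TGACNNNGC, read by NRF2, lay in 7 windows of 5 genes (Atg13, Map1lc3b, Tax1bp1, Ulk2 and Vmp1) and in 12.4% of all windows. None of the 39 windows held the forkhead letters TGTTTAC, found in 3.65% of all windows. A match is a description of the letters and not a bound site. The windows below are those of Atg3, with the palindrome, Atg7, which fell at d15, and Ulk2, which fell at d35. Capitals mark the matched letters. That of Atg3 (chr16:45158579-45158878, plus strand) has TCACGTG from base -95 and TCACGTGA from base -72, where -1 is the base before the start site. In the window of Atg7 (chr6:114670846-114671145, plus strand) TCACGTG starts at base -133. This window lies inside the GENCODE span of Atg7, downstream of its first annotated base at 114643097, so it belongs to an internal start site. The window of Ulk2 (chr11:61855043-61855342, minus strand) has TGACGTCGC from base -17.
Atg3: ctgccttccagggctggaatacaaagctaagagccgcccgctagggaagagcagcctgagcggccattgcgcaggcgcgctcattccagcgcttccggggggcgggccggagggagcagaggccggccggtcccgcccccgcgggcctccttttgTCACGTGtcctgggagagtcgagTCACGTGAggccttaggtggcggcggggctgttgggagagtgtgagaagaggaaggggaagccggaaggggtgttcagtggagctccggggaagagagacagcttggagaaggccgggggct
Atg7: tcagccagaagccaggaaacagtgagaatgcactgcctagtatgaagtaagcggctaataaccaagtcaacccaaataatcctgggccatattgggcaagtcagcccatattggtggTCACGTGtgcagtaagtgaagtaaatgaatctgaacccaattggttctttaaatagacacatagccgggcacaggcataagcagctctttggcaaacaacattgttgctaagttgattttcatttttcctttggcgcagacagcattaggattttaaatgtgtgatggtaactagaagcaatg
Ulk2: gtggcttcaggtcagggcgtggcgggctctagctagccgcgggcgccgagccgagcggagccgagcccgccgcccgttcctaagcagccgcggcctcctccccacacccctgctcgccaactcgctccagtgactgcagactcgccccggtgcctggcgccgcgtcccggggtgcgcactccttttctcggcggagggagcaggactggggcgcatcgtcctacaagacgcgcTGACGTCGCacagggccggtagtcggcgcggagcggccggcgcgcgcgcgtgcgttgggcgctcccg

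All 41 genes had reads in every library, but at very different levels. Divided by the length of the principal transcript, the cargo receptor gene Sqstm1 had the highest mean, at 337 scaled CPM per kb, followed by Gabarap at 296, Map1lc3b at 144, Tax1bp1 at 113 and Atg3 at 89.3. Genes of the initiation kinases lay far lower, with Ulk2 at 16.8 and Ulk1 at 5.44 scaled CPM per kb. At the bottom were Atg16l2 at 2.59, Ulk4 at 0.252 with 14 to 53 reads per library, and Atg4a-ps, annotated as a copy of Atg4a, at 0.112 with 5 to 12 reads. A gene had to reach 1 scaled CPM in at least 2 libraries to be tested. Atg4a-ps was at 0.167 to 0.408 scaled CPM and stayed under that value in all 8, which left 40 genes. Replicates lay close together, with a median coefficient of variation of 7.12% in naive, 5.30% in d15 and 7.07% in d35 libraries. Over all genes tested it was 8.44%, 6.47% and 10.4%. For genes with at least 5 scaled CPM in at least 3 libraries it was 7.4%, 5.6% and 9.1%, near the autophagy genes in naive and d15. Exons of 7 of these genes overlap those of a gene on the other strand that is also in the table, among them Sqstm1 (with Mrnip) and Map1lc3b (with Zcchc14). Whether counting used the strand is not given in the sources used here, and without it such reads cannot be told apart. None of the 8 genes called below has such an overlap.

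**Figure D1:**
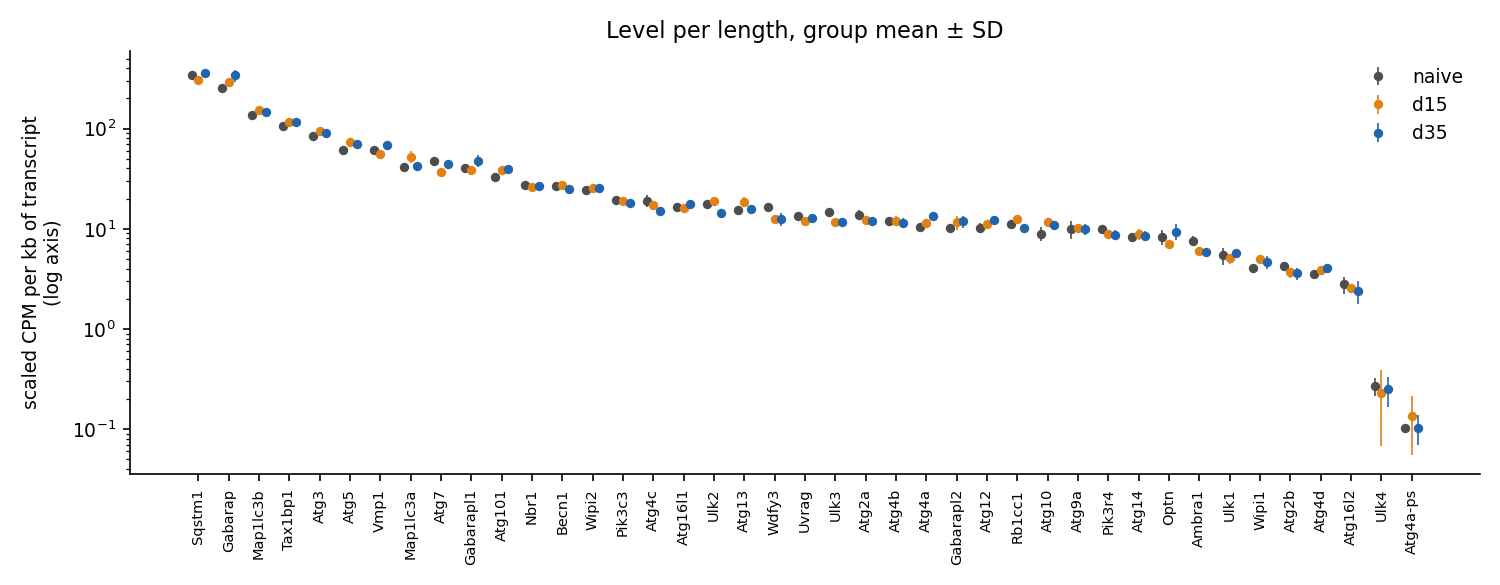
Level of the 41 autophagy genes per kb of principal transcript (scaled CPM per kb, log axis), as group means with SD bars (3 naive, 2 d15 and 3 d35 libraries), ordered by the mean over all libraries. Levels run from 337 for Sqstm1 to 0.112 for Atg4a-ps, and for most genes the 3 group means are close.

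The 3 comparisons asked which of these genes differed between macrophages of naive and tumor-bearing lungs and between the times. They share libraries (the naive ones serve both times), so their calls are not independent. A gene was called with limma at a Benjamini-Hochberg adjusted p under 0.05 over all 11273 genes tested. At d15 against naive 1 of 40 autophagy genes was called, Atg7, which fell. Among all genes tested 4.37% were called, 2.37% higher and 2% lower. At d35 against naive 7 of 40 were called (17.5%), where 16.2% of all genes were. Gabarap and Atg4a rose, where 9.86% of all genes rose, and Ambra1, Atg4c, Ulk2, Ulk3 and Wdfy3 fell, where 6.32% of all genes fell. At d35 against d15 the 1 gene called was Ulk2, which fell, against 7.39% called, 4.59% higher and 2.8% lower, among all genes.

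Below, a gene that did not pass limma is one not called with all libraries in the fit. The d35 count rested on single libraries. Leaving out naive replicate 1, 2 or 3 gave 0, 2 and 4 genes. When d35 replicate 1, 2 or 3 was left out it was 1, 6 (with Atg5 added) and 3 (with Gabarapl1 added). Without d15 replicate A or B, which only inform the spread, it was 4 each. At d15 the count was 0 without any 1 of the naive or d15 libraries and 2 without d35 replicate 1 or 2, when Wdfy3 was added. Between the times the count was 0 without d15 replicate A or B, 3 without d35 replicate 2 and 2 without d35 replicate 3.

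Markers of other cells also differed between the groups. Of 11 markers of monocytes and interstitial macrophages 8 rose at d35, none of the 11 was at 0, and their summed level was 80.6 to 83.5 scaled CPM in naive, 104 to 130 in d15 and 219 to 811 in d35 libraries. Endothelial markers fell at d35 in 8 of 9 cases, with none at 0 and sums of 286 to 378 in naive, 193 to 237 in d15 and 173 to 223 in d35 libraries. Calcrl was the largest part of these sums, at means of 171, 116 and 112. At d15 1 of the 11 monocyte and interstitial markers rose and 1 fell, and 3 of the 9 endothelial markers fell. Of 9 epithelial and tumor markers Krt8, Krt18 and Krt7 rose at d35, on the log2 scale by 3.63, 3.59 and 3.14, from naive means of 0.262, 0.214 and 0.526 to 15, 14.6 and 13 scaled CPM, and Epcam fell from 201 to 120. Sums of this list were 1431 to 1443 in naive, 1233 to 1354 in d15 and 1217 to 1336 in d35 libraries. Most of that sum is Krt19, at means of 1049, 940 and 897, so it does not show the rise of Krt8, Krt18 and Krt7. B cell markers were low, with sums of 10.4 to 15.5, 5.22 to 5.64 and 3.78 to 6.93, and 3 of 4 fell at d35. Alveolar macrophage markers summed to 25200 to 32710, 34260 to 38970 and 35300 to 49360, with 3 of 12 higher and 1 lower at d35. Most of that sum is Chil3, which did not pass (limma adjusted p = 0.0799 at d35), and the other 11 summed to 7040 to 7501 in naive, 8155 to 8260 in d15 and 7295 to 8744 in d35 libraries. Immediate-early and heat-shock genes, which respond to tissue handling, summed to 2535 to 6222 in naive, 5167 to 6175 in d15 and 2004 to 4484 in d35 libraries. The part of these differences in the changes of autophagy genes was not tested.

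Changes in the autophagy genes were small. No autophagy gene passed a log2 fold change of 0.5 either way in any of the 3 comparisons, where 7.95%, 11.5% and 10.5% of all genes did (d15 against naive, d35 against naive and d35 against d15). Among the 9402 better measured genes, with at least 5 scaled CPM in at least 3 libraries, these shares were 6.29%, 7.89% and 7.34%, and none of the 39 autophagy genes among them passed. The largest were -0.39 for Wdfy3 at d15, -0.41 for Wdfy3 at d35 and -0.41 for Ulk2 between the times, and 16.1%, 17.1% and 14.9% of all genes moved further. Log2 fold changes of the 40 had medians of 0.021 (d15), 0.039 (d35) and -0.021 (d35 against d15), beside 0.012, -0.0022 and -0.0026 over all genes. They were above 0 for 21 genes at d15, 23 at d35 and 16 from d15 to d35, where 51.9%, 49.6% and 49.6% of all genes were. In absolute size the medians were 0.14, 0.16 and 0.093 against 0.17, 0.17 and 0.15. Over the 9402 better measured genes they were 0.165, 0.161 and 0.13, so at d35 the autophagy genes were close to these. Ranges of the groups did not overlap for 22 of 40 genes at d15 (55%, 48.2% of all genes), 15 at d35 (37.5%, 36.7%) and 18 at d35 against d15 (45%, 38.4%).

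**Figure D2:**
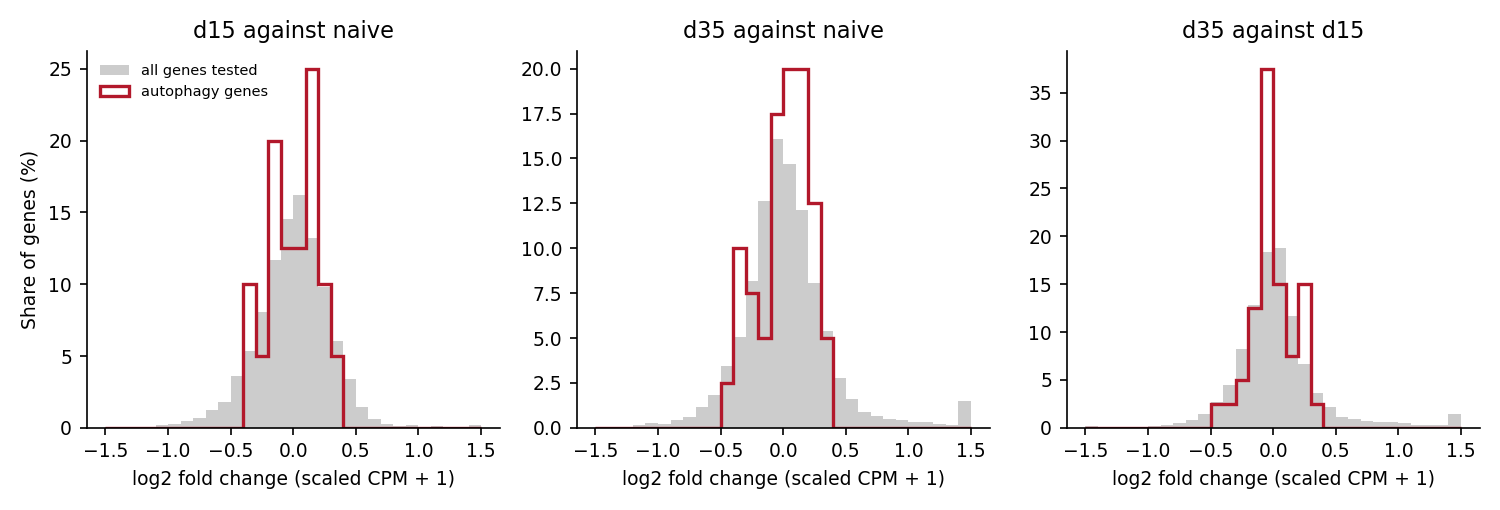
Share of genes (%) by log2 fold change in bins 0.1 wide, for the 40 autophagy genes tested (red line) and all 11273 genes tested (grey), in each of the 3 comparisons. Fold changes of all genes beyond the axis are drawn in the end bins, and no autophagy gene lies beyond 0.5 either way.

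The ULK complex consists of the kinase ULK1 or its paralog ULK2 with ATG13, ATG101 and the scaffold RB1CC1 (FIP200). In this complex Ulk2 changed and the other 4 genes did not pass limma in any comparison, while DESeq2 called Atg101 at d35 against naive and Rb1cc1 at d35 against d15. Ulk2 (chromosome 11, 61775649 to 61855073) was at 108, 94.1 and 105 scaled CPM in the naive libraries, 110 and 108 at d15, and 77.4, 85 and 83.5 at d35. All d35 libraries lay below all others. Its log2 fold change at d35 against naive was -0.32 ± 0.075 (SE, limma adjusted p = 0.0202), a level that fell by 19.7%. Against d15 the log2 fold change was -0.41 ± 0.084 (limma adjusted p = 0.0166), and d15 against naive it was 0.092 (adjusted p = 0.527). Without naive replicate 1, naive replicate 3 or d35 replicate 1 the d35 call ended, with limma adjusted p of 0.0702, 0.0633 and 0.0618. Without d15 replicate A or B the call between the times ended (0.112 and 0.124). Ulk1 gave 34.7, 24.9 and 25.4 scaled CPM in naive, 28.6 and 24.2 at d15, and 28.7, 29.5 and 31.1 at d35. Naive replicate 1 was the highest of the 8, and the Ulk1 groups overlapped at both times against naive. The log2 fold changes of Ulk1 were -0.087 at d15 and 0.084 at d35 (limma adjusted p = 0.746 and 0.685). The ratio of Ulk1 to Ulk2 was 0.241 to 0.321 in naive, 0.224 to 0.260 in d15 and 0.347 to 0.372 in d35 libraries. Its d35 range lay above both others, but the ratio holds the called gene Ulk2 and is no separate result. Atg101, Atg13 and Rb1cc1 had log2 fold changes between -0.12 and 0.27 against naive, the largest that of Atg101 at d35 (limma adjusted p = 0.0563).

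ULK3 and ULK4 are related proteins outside this complex. Ulk3 (chromosome 9, 57589452 to 57596233) was at 45.1, 40.2 and 38.6 scaled CPM in naive, 32.5 and 33.1 at d15, and 30.5, 35 and 32.5 at d35. Naive libraries were the highest 3 of the 8. The log2 fold change was -0.33 ± 0.091 at d35 (SE, limma adjusted p = 0.0348) and -0.32 ± 0.10 at d15 (adjusted p = 0.0831). The d35 call of Ulk3 held without d35 replicate 2 (0.0259) and ended without each of the other 7 libraries, with limma adjusted p from 0.0515 without naive replicate 3 to 0.113 without naive replicate 1.

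The phosphatidylinositol 3-kinase complex joins the lipid kinase PIK3C3 (VPS34) and PIK3R4 to Beclin 1 and either ATG14 or UVRAG, with AMBRA1 as a regulator. Of its 6 genes only Ambra1 passed limma, at d35, where it fell. Ambra1 (chromosome 2, 91730134 to 91918849) read 39.4, 44.5 and 35.1 scaled CPM in naive, 30.3 and 32.6 at d15, and 29.7, 30.9 and 32 at d35. Each tumor library was below each naive library. It had a log2 fold change of -0.35 ± 0.098 at d35 (SE, limma adjusted p = 0.0382) and -0.32 at d15 (adjusted p = 0.101). The d35 call of Ambra1 held without naive replicate 3 (0.0341). It ended without each of the other 7 libraries, with limma adjusted p from 0.0553 without d15 replicate B to 0.139 without naive replicate 2. Becn1, the gene of Beclin 1, was at 116, 109 and 126 in naive, 124 and 114 at d15, and 112, 110 and 105 at d35. Its ranges overlapped, and the log2 fold changes were 0.029 at d15 and -0.096 at d35 (limma adjusted p = 0.862 and 0.400). The other 4 genes of the complex (Pik3c3, Pik3r4, Atg14 and Uvrag) had means between 30.6 and 68.5 scaled CPM over the groups and log2 fold changes between -0.18 and 0.11 against naive.

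Membrane supply genes encode the lipid transfer proteins ATG2A and ATG2B, the scramblases ATG9A and VMP1 and the phosphoinositide readers WIPI1 and WIPI2. None of these 6 passed limma in any comparison, with an unadjusted p under 0.05 for 0 at d15, 2 at d35 and 1 at d35 against d15. Over all 11273 genes tested, 2954, 3654 and 2509 had such a p. Vmp1 was the most abundant of the 6, at means of 169 in naive, 157 in d15 and 189 scaled CPM in d35 libraries. The log2 fold changes of the 6 against naive lay between -0.26 (Atg2b at d35) and 0.28 (Wipi1 at d15), with limma adjusted p of 0.132 and 0.253. Atg9b, also listed for this role, was not in the deposited expression table.

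**Figure D3:**
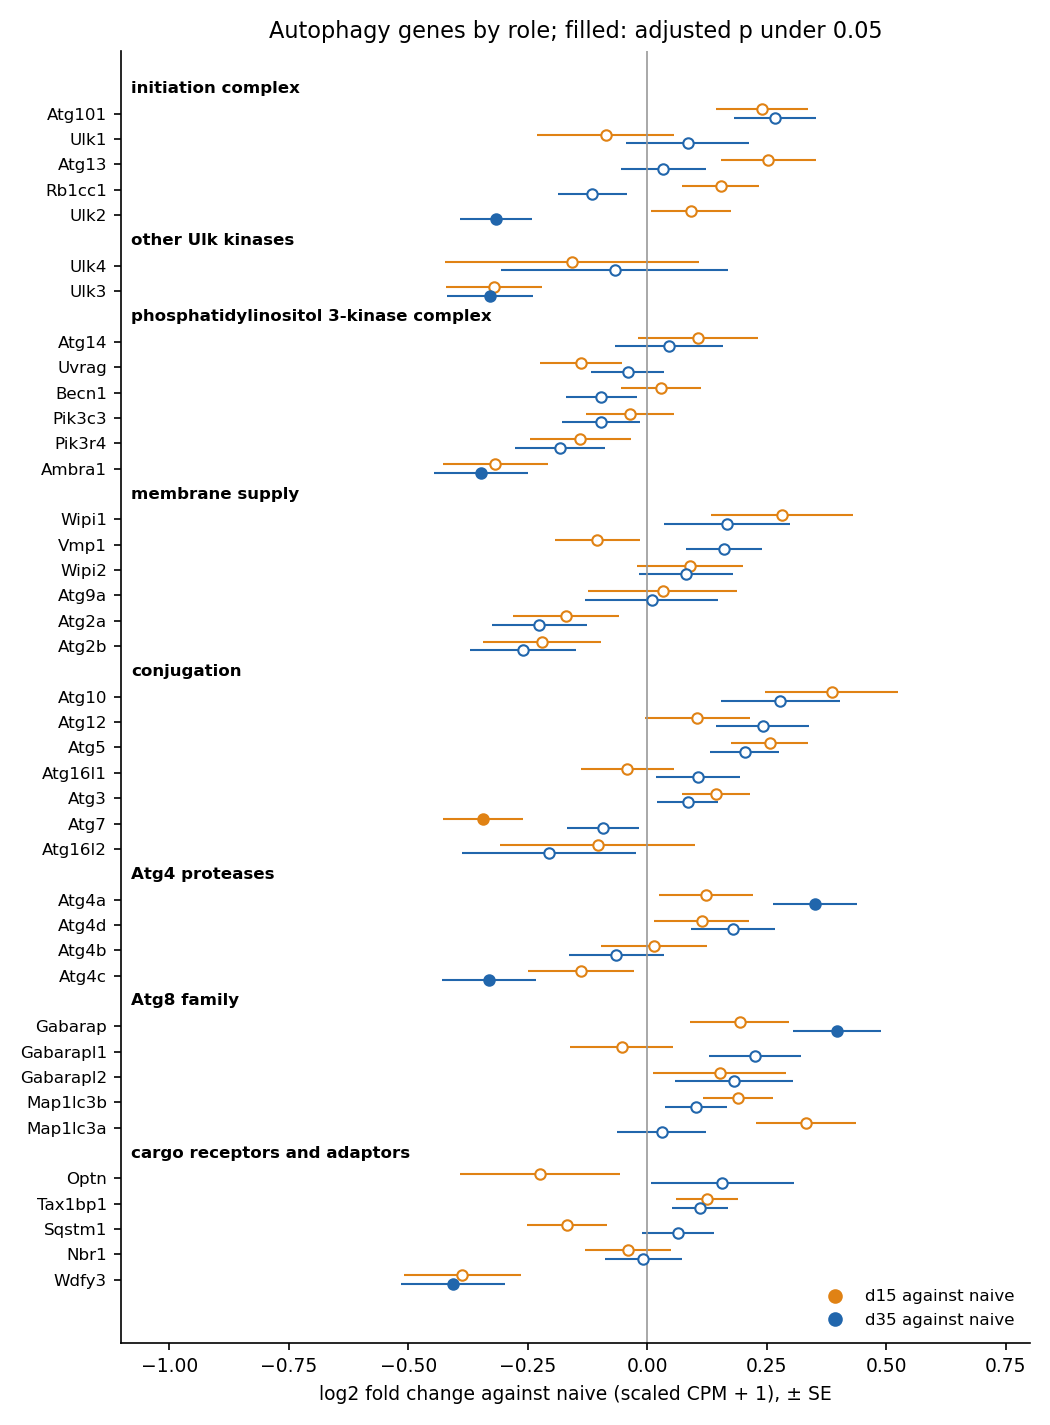
Log2 fold change against naive (scaled CPM + 1) with its SE for the 40 autophagy genes by role, at d15 (orange) and d35 (blue). Filled circles are genes with limma adjusted p under 0.05, which were Atg7 at d15 and Gabarap, Atg4a, Ambra1, Atg4c, Ulk2, Ulk3 and Wdfy3 at d35.

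In the conjugation system ATG7 acts as the activating enzyme (E1) for both ATG12 and the Atg8 proteins. ATG3 and ATG10 are the E2 enzymes, and ATG12-ATG5 with ATG16L1 directs Atg8 proteins to membrane. Of the 7 genes Atg7 fell at d15 and none passed limma at d35. At d35 3 had an unadjusted p under 0.05, as did 3654 of all 11273 genes. Atg7 (chromosome 6, 114643097 to 114860614) was at 184, 184 and 166 scaled CPM in naive, 138 and 141 at d15, and 179, 167 and 154 at d35. The d15 libraries were the lowest of the 8, and the d35 range overlapped that of naive. The log2 fold change was -0.34 ± 0.084 at d15 (SE, limma adjusted p = 0.0476) and -0.092 at d35 (adjusted p = 0.424). From d15 to d35 it was 0.25 (adjusted p = 0.102). This call ended without naive replicate 1, 2 or 3 (limma adjusted p = 0.103, 0.155 and 0.0686) and without d15 replicate A or B (0.181 and 0.249). It also missed the threshold with edgeR's quasi-likelihood test (adjusted p = 0.0502), with limma-voom (0.0554) and with no filter on low values (0.0527). Atg5, the partner of ATG12, was at 141, 137 and 152 in naive, 172 and 170 at d15, and 175, 153 and 169 at d35. Every tumor library was above the naive ones, though the log2 fold changes of 0.26 at d15 and 0.20 at d35 did not pass (limma adjusted p = 0.0837 and 0.0795). The ratio of Atg7 to Atg5 was 1.09 to 1.34 in naive, 0.801 to 0.829 in d15 and 0.915 to 1.09 in d35 libraries. This ratio holds the called gene Atg7 and is no separate result. The other 5 genes (Atg3, Atg10, Atg12, Atg16l1 and Atg16l2) had log2 fold changes between -0.21 and 0.39 against naive, the highest that of Atg10 at d15 (adjusted p = 0.112).

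The ATG4 proteases trim newly made Atg8 proteins and release them from membrane. At d35 Atg4a rose and Atg4c fell, while Atg4b and Atg4d did not pass limma in any comparison. Atg4a (chromosome X, 140956907 to 141164270) was at 22, 22.8 and 23.9 scaled CPM in naive, 26.2 and 23.9 at d15, and 30.3, 28.4 and 29.7 at d35. All d35 libraries were above all others, and the log2 fold change was 0.35 ± 0.088 (SE, limma adjusted p = 0.0242). Without naive replicate 1 or 2 or d35 replicate 1 or 3 that call ended (limma adjusted p = 0.0744, 0.0781, 0.0694 and 0.0553). Atg4c (chromosome 4, 99193934 to 99259787) was at 70.6, 53.8 and 58 in naive, 56.4 and 53.2 at d15, and 47.1, 46.8 and 49.6 at d35. Naive replicate 1 stood above the rest and the d35 libraries were the lowest. The log2 fold change of Atg4c at d35 was -0.33 ± 0.099 (SE, limma adjusted p = 0.0458). The Atg4c call held without naive replicate 2 (0.0489) and ended without each of the other 7 libraries, with limma adjusted p from 0.0664 without d15 replicate B to 0.131 without naive replicate 1. In the last case the log2 fold change was -0.22. The summed level of the 4 protease genes was 147 to 163 scaled CPM in naive, 152 to 154 in d15 and 145 to 157 in d35 libraries. These sums overlapped. The ratio of Atg4a to Atg4c was 0.312 to 0.423 in naive, 0.449 to 0.464 in d15 and 0.598 to 0.644 in d35 libraries. Groups did not overlap in this ratio, which for d35 follows from the ranges of the 2 genes above and is no separate result. A share over other gene pairs was not taken. How reads shared by Atg4a and its copy Atg4a-ps were counted is not given in the sources used here.

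**Figure D4:**
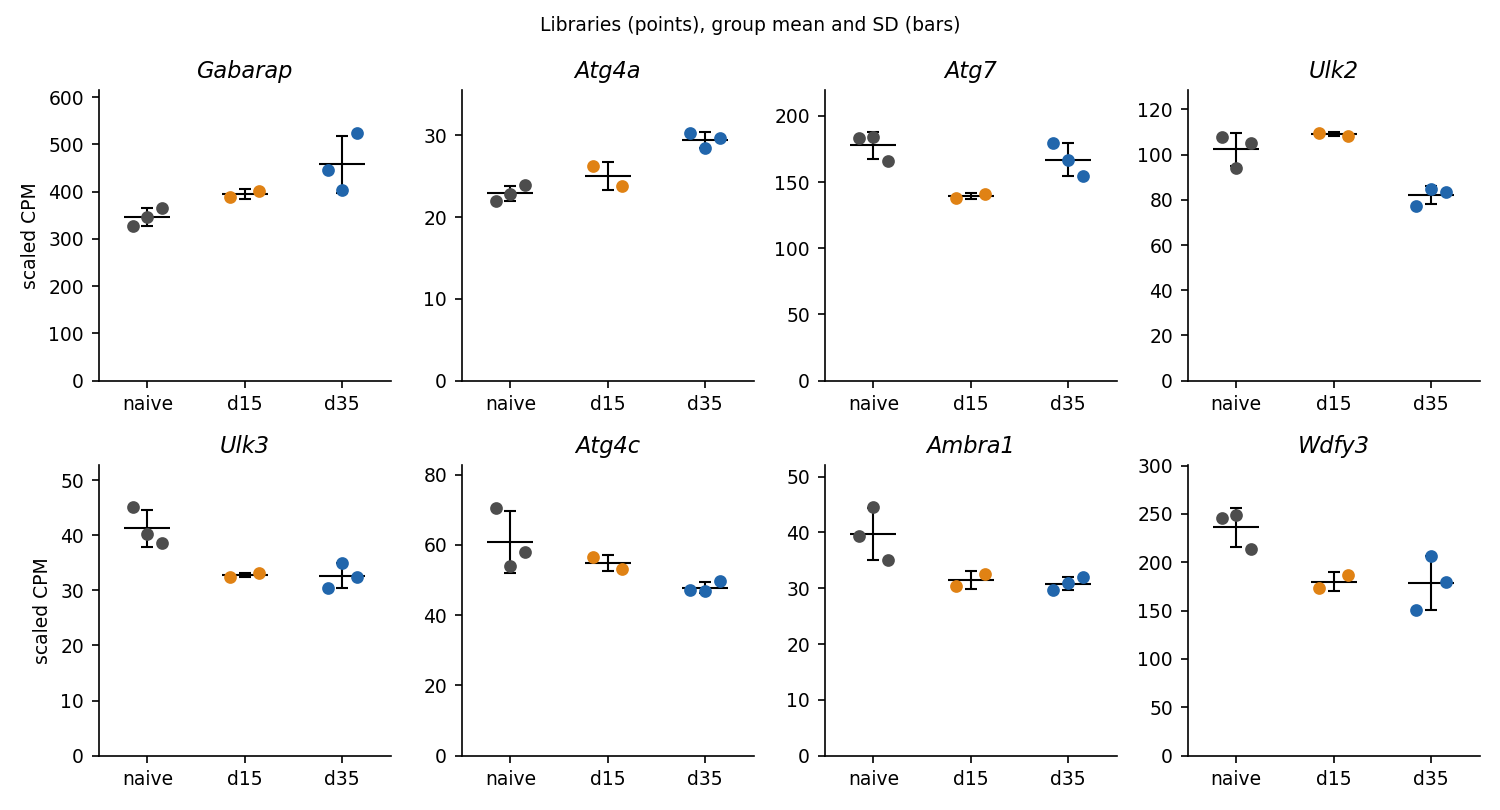
Scaled CPM in each library (points, replicates from left to right) with the group mean (line) and SD (bars) for the 8 autophagy genes called in at least 1 comparison. At d35 Gabarap and Atg4a lie above the naive libraries and Ulk2, Ulk3, Atg4c, Ambra1 and Wdfy3 below them, and at d15 Atg7 lies below them.

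Proteins of the Atg8 family coat the growing membrane and bind cargo receptors. Of the 5 genes Gabarap rose at d35 and no other passed limma in any comparison. Gabarap (chromosome 11, 69991143 to 69994951) was at 327, 345 and 365 scaled CPM in naive, 388 and 402 at d15, and 445, 404 and 524 at d35. Every tumor library was above every naive one and every d35 library above both of d15. The log2 fold change was 0.40 ± 0.093 at d35 (SE, limma adjusted p = 0.0194), a rise of 31.7%, and 0.19 at d15 (adjusted p = 0.264). Without naive replicate 1 or 2 the limma adjusted p was 0.0674 and 0.0683. After correction for gene length (all exons merged) the log2 fold change was 0.23 (limma adjusted p = 0.0586). Map1lc3b, which encodes LC3B, the usual marker protein of autophagosomes, was at 357, 325 and 346 in naive, 385 and 397 at d15, and 358, 362 and 383 at d35. Its naive libraries were the lowest, but the log2 fold changes of 0.19 and 0.10 did not pass (limma adjusted p = 0.131 and 0.309). Map1lc3a was at 42.9, 46.8 and 48 in naive, 52.5 and 64 at d15, and 44, 47.8 and 48.9 at d35. Only the d15 libraries stood out for Map1lc3a, with a log2 fold change of 0.33 against naive (limma adjusted p = 0.0822). Gabarapl1 was at 71.7, 71.9 and 77.4 in naive, 67.6 and 74.4 at d15, and 98.1, 86.5 and 75.5 at d35. Its d35 range overlapped that of naive (log2 fold change 0.23, limma adjusted p = 0.134). Gabarapl2, the least abundant, was at 16.9, 17.4 and 17.5 in naive, 17.3 and 21.5 at d15, and 17.8, 18.6 and 23.2 at d35 (log2 fold changes 0.15 and 0.18, limma adjusted p = 0.527 and 0.336). All 5 log2 fold changes were above 0 at d35, where 49.6% of all genes were, but that of Map1lc3a was -0.24 after correction for merged exon length. Their median was 0.182. Gabarap, Gabarapl1, Gabarapl2 and Map1lc3a lie in the shortest of 5 bins by merged exon length. All genes of that bin had a median of 0.178 at d35. Summed over the family the level was 807 to 854 scaled CPM in naive, 911 to 959 in d15 and 919 to 1055 in d35 libraries. The ratio of Gabarap to Map1lc3b was 0.916 to 1.06 in naive, 1.01 in both d15 libraries and 1.12 to 1.37 in d35 libraries. Both the family sum and this ratio hold the called gene Gabarap and are no separate result.

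Cargo receptors tie ubiquitin-tagged material to Atg8 proteins, and WDFY3 (ALFY) is a large scaffold that links aggregates to the machinery. Of the 5 genes Wdfy3 fell at d35. Wdfy3 (chromosome 5, 101832956 to 102069921) was at 246, 249 and 213 scaled CPM in naive, 173 and 187 at d15, and 151, 207 and 179 at d35. All tumor libraries were below the naive ones, with d35 replicate 2 the closest. The log2 fold change was -0.41 ± 0.11 at d35 (SE, limma adjusted p = 0.0317), a level that fell by 24.5%, and -0.39 ± 0.12 at d15 (adjusted p = 0.0825). Without naive replicate 1 or 2 or d35 replicate 1 or 3 the d35 call ended (limma adjusted p = 0.0953, 0.111, 0.0811 and 0.0694). It also ended after correction for merged exon length, where the log2 fold change was -0.19 (limma adjusted p = 0.213). Sqstm1, the gene of p62, was at 724, 702 and 654 in naive, 615 and 619 at d15, and 726, 777 and 674 at d35. Both d15 libraries lay below all others, with a log2 fold change of -0.17 against naive (limma adjusted p = 0.233), and d35 was close to naive (0.064, adjusted p = 0.591). Tax1bp1 was at 350, 347 and 358 in naive, 379 and 387 at d15, and 380, 375 and 384 at d35. Its tumor libraries were all higher by a small margin (log2 fold changes 0.12 and 0.11, limma adjusted p = 0.253 and 0.216). Optn and Nbr1 did not pass (log2 fold changes between -0.22 and 0.16 against naive).

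For d15 against naive the authors' deposited table lists 10778 genes, and in it 389 had a false discovery rate under 0.05 (3.61%). Of the 39 autophagy genes listed there 2 were among them, Wdfy3 and Atg7. The authors' deposited table gives Wdfy3 a log2 fold change of -0.41 (false discovery rate 0.0083) and Atg7 one of -0.37 (0.0206), against limma adjusted p of 0.0825 and 0.0476 in the fit that also holds the d35 libraries. With only the naive and d15 libraries in the fit, both genes were called (limma adjusted p = 0.0317 for Wdfy3 and 0.0279 for Atg7). Atg9a and Atg4b, both near 0, have the other sign in the authors' deposited table.

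Genes around the core machinery were counted in 5 lists, with 85 genes tested. At d15 against naive 4 rose and 1 fell, at d35 against naive 7 rose and 2 fell, and at d35 against d15 2 rose and 3 fell, which is 5.88%, 10.6% and 5.88% of the 85 (4.37%, 16.2% and 7.39% of all genes). Among 10 genes of autophagy and lysosome transcription factors, Mitf and Tfec rose at d15, Nfe2l2 rose at d35, and between the times Tfe3 rose while Mitf and Tfec fell. Mitf was at 22.9, 26 and 21.6 scaled CPM in naive, 36.7 and 37 at d15, and 25.8, 24.8 and 26.8 at d35. Only the d15 libraries were high, with a log2 fold change of 0.63 against naive (limma adjusted p = 0.0148) and -0.50 from d15 to d35 (adjusted p = 0.0185). Tfec, a family member found mainly in macrophages, was at 145, 145 and 151 in naive, 204 and 202 at d15, and 160, 167 and 150 at d35. It too was high at d15 only, with log2 fold changes of 0.46 and -0.35 (limma adjusted p = 0.0104 and 0.0171). Tfe3 was at 90.9, 86.3 and 80.1 in naive, 71.2 and 73.6 at d15, and 96.7, 97.1 and 91.8 at d35. The d15 libraries were the lowest, and from d15 to d35 Tfe3 rose by 0.39 on the log2 scale (limma adjusted p = 0.0163). Nfe2l2, which encodes NRF2, was at 259, 271 and 290 in naive, 284 and 249 at d15, and 328, 310 and 377 at d35 (log2 fold change at d35 0.30, limma adjusted p = 0.0437). The d15 calls of Mitf and Tfec, and their calls between the times with that of Tfe3, ended without d15 replicate A or B, and over all alternatives the adjusted p reached at most 0.165. The d15 call of Mitf also ended without naive replicate 3 and that of Tfec without naive replicate 2. That of Nfe2l2 ended when any library other than d35 replicate 2 was left out or after length correction, and its adjusted p reached at most 0.130.

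mTORC1 is recruited to the lysosome by Rag GTPases on the Ragulator complex, whose subunits are the LAMTOR proteins. Of 29 genes of this list 5 were called at d35 (17.2%, 16.2% of all genes), with Lamtor1, Lamtor2, Lamtor4 and Lamtor5 higher and Rragb lower. None passed limma at d15 or between the times. An unadjusted p under 0.05 was seen there for 10 and 5, and for 2954 and 2509 of all 11273 genes. Lamtor5 was at 43.3, 46.6 and 48.2 scaled CPM in naive, 55.1 and 58.6 at d15, and 60.5, 58.5 and 70.6 at d35. Every tumor library was above the naive ones (log2 fold change at d35 0.45, limma adjusted p = 0.0105). Lamtor4 was at 20.7, 21.6 and 21.4 in naive, 25.9 and 29.9 at d15, and 31, 26.6 and 36.4 at d35 (log2 fold change 0.53, limma adjusted p = 0.0162). Lamtor1 gave 89.1, 96.6 and 103 in naive, 99.7 and 102 at d15, and 122, 112 and 120 at d35 (log2 fold change 0.29, limma adjusted p = 0.0258). Here the d15 libraries lay within the naive range and those of d35 above it. Lamtor3, the other Ragulator subunit gene, did not pass (log2 fold change at d35 0.29, limma adjusted p = 0.0540). After correction for merged exon length the calls of Lamtor5, Lamtor4 and Lamtor2 ended (limma adjusted p = 0.241, 0.0676 and 0.358). That of Lamtor1 was then at 0.0499. The calls of Lamtor1 and Lamtor4 ended without naive replicate 1 or 2, and that of Lamtor1 also without d35 replicate 1 or 3 (adjusted p of at most 0.0857 for both over all alternatives). Leaving out any library other than d35 replicate 2 ended the call of Lamtor2. Rragb was at 4.22, 4.9 and 5.28 in naive and 3.35, 2.75 and 2.71 at d35 (limma adjusted p = 0.0326). That call ended without naive replicate 2 or 3 or d35 replicate 2 or 3 (adjusted p of at most 0.0989).

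Receptors for mitochondria, endoplasmic reticulum and ferritin were tested with 20 genes. Bnip3 and Bnip3l rose at d15, Bnip3 fell again from d15 to d35 and Ncoa4 fell at d35. Bnip3, a receptor on the mitochondrial membrane, was at 12.1, 9.6 and 11.2 scaled CPM in naive, 17.1 and 22.7 at d15, and 12.8, 8.57 and 11 at d35. Both d15 libraries were above all others, with log2 fold changes of 0.80 at d15 and -0.83 from d15 to d35 (limma adjusted p = 0.0397 and 0.0207). Its relative Bnip3l (NIX) was at 217, 191 and 218 in naive, 264 and 278 at d15, and 217, 223 and 235 at d35 (log2 fold change at d15 0.38, limma adjusted p = 0.0332). The d15 calls of both ended without any 1 naive or d15 library (adjusted p of at most 0.299 for Bnip3 and 0.255 for Bnip3l), and that of Bnip3 also after length correction (0.0608). The Bnip3 call between the times ended without d15 replicate B (at most 0.216) and with only the d15 and d35 libraries in the fit (0.0596). Ncoa4, the receptor for ferritin, was at 355, 368 and 410 in naive, 337 and 296 at d15, and 321, 315 and 262 at d35. Tumor libraries were all lower (log2 fold change at d35 -0.34, limma adjusted p = 0.0384), and the call ended without naive replicate 1, 2 or 3, without d35 replicate 3 or after length correction (at most 0.131).

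Among 15 genes for fusion of the autophagosome with the lysosome only Vamp8 passed, at d35 (6.67%, 16.2% of all genes). None passed limma at d15 or between the times. An unadjusted p under 0.05 was seen there for 5 and 1, and for 2954 and 2509 of all 11273 genes. Vamp8, a SNARE of that fusion step, was at 129, 133 and 134 scaled CPM in naive, 148 and 169 at d15, and 164, 159 and 188 at d35 (log2 fold change 0.36, limma adjusted p = 0.0166, and at most 0.0580 without naive replicate 1 or 2, where the call ended). Of 11 other genes of autophagosome formation Tecpr1 fell at d15 and rose again between the times, and Tmem41b rose at d35. That is 9.09% of the 11 in each comparison, where 4.37% (d15), 16.2% (d35) and 7.39% (between the times) of all genes were called. Tecpr1, a tether on lysosomes, was at 74.2, 71 and 63.3 in naive, 45.6 and 45.5 at d15, and 65.1, 70.2 and 54.6 at d35. Both d15 libraries were the lowest, with log2 fold changes of -0.60 at d15 and 0.46 between the times (limma adjusted p = 0.0231 and 0.0341). The d15 call ended without naive replicate 1 or 2 or d15 replicate A or B (at most 0.192). That between the times ended without naive replicate 2, d15 replicate A or B or d35 replicate 1 or 2 (at most 0.198). Tmem41b, an ER scramblase that works with VMP1, was at 25.2, 23.8 and 23.9 in naive and 31.5, 29.3 and 29.3 at d35 (limma adjusted p = 0.0374), and its call ended when any library other than d35 replicate 2 was left out (at most 0.111).

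Merged exon length, which joins the exons of all transcripts of a gene, moved with the fold changes against naive. Over 5 bins of equal gene number by merged exon length, all genes together had a median log2 fold change that ran from 0.17 in the shortest to -0.13 in the longest bin at d15 and from 0.18 to -0.15 at d35. The autophagy genes were long, with a median of 6050 bp against 4540 bp over all genes tested. Gabarap (1844 bp) and Atg4a (2661 bp) were among the shorter genes and Wdfy3 (15346 bp) was the longest of the 40. After each library was corrected for a smooth trend on merged exon length, 5 genes were called at d35. Atg4c, Ulk2 and Ulk3 remained (limma adjusted p = 0.0317, 0.0359 and 0.0324), and Atg12 and Tax1bp1 were added. Merged exons of Atg12 and Tax1bp1 span 7711 and 9991 bp, but their principal transcripts only 4765 and 3285 bp. A correction on principal transcript length was not run. After the correction the log2 fold change was 0.23 for Gabarap (limma adjusted p = 0.0586), 0.27 for Atg4a (0.0579), -0.30 for Ambra1 (0.0692) and -0.19 for Wdfy3 (0.213). At d15 Atg7 had -0.29 (limma adjusted p = 0.0685) and Rb1cc1 was called instead. Between the times the length bins were level (0.0061 in the shortest, -0.019 in the longest), and Ulk2 stayed called there (-0.41, adjusted p = 0.0136).

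**Figure D5:**
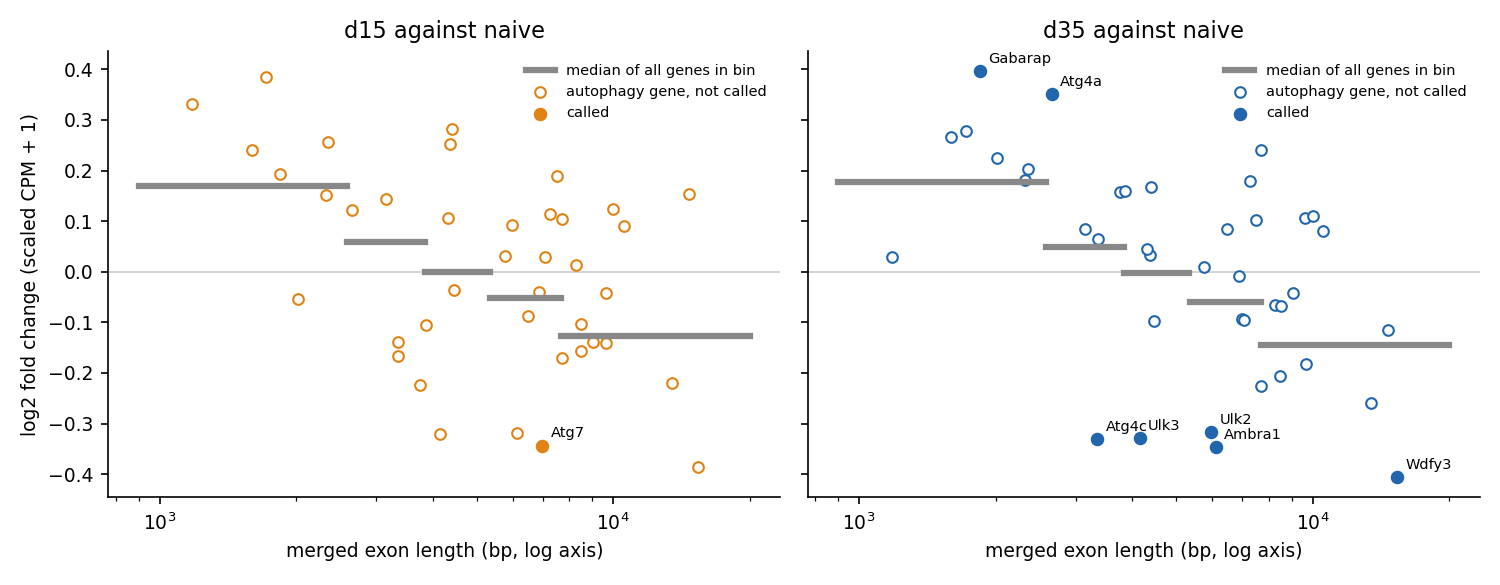
Log2 fold change against naive of the 40 autophagy genes by merged exon length (bp, log axis), with called genes filled and named, at d15 (left) and d35 (right). Grey lines give the median of all genes in each of 5 length bins, drawn between 900 and 20000 bp, and run from 0.18 down to -0.15 at d35.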

How the data were processed

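RNA sequencing of sorted alveolar macrophages was analysed in 8 libraries. The submitters' processing notes name STAR 2.5, mm10 and edgeR. For the counting program, its annotation and strand setting, the sources used here give nothing. The deposited expression table holds a scaled signal per gene, of the form (reads + 0.5) divided by (library size + 1), as CPM: 100% of values came out as whole reads within 0.001. The fewest reads of a gene, summed over all 8 libraries, were 41, so low genes had been left out of the table. Columns of d15 carry other numbers than the titles and are called replicates A and B. The authors' deposited d15 table gives each gene's p-value, log2 fold change and likelihood-ratio score, per the file headers.

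limma 3.58.1 (R 4.3.3) with an intensity trend was fitted on log2(value + 1) for 11273 genes with at least 1 in at least 2 libraries, with the group as the only term over all 8 libraries (residual df 5), and p-values adjusted by Benjamini-Hochberg over all genes tested. Fold changes on this scale understate those of low genes. The limma step was tested on simulated data with known changes. It recovered 36.4% (d15 against naive) and 44.8% (d35 against naive) of 1.5-fold changes, a size that no autophagy gene reached. Of 2-fold changes it recovered 78.8% and 83.3%. Of its calls 8.16% and 8.59% fell on unchanged genes. Alternatives were other pseudocounts and filters, edgeR 4.0.16, DESeq2 1.42.0 and limma-voom on recovered reads, TMM rescaling, length correction, fits of 2 groups, each library left out and a replicate block. Gene positions and lengths come from GENCODE M21 (GRCm38), promoters from RefSeq. Genes given in every library are those called in any comparison, the 3 most abundant, the Atg8 family and Sqstm1, Ulk1, Becn1, Atg5 and Atg7, and of related lists at most the 3 called genes with the smallest p per comparison. The members and lists were chosen with earlier results of these data known. No protein sequence was used.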

Additional observations from a re-analysis of the deposited data

Results flagged for a closer look

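6 genes had an effect over naive that differed between d15 and d35 in the limma contrast of the times itself, out of 40 autophagy and 85 related genes tested. Among the 40 that is 1 gene (2.5%) and among the 85 it is 5 (5.88%), both below the 7.39% of all genes called in that contrast. The difference of the log2 effects (d35 minus d15) was -0.41 for Ulk2 (limma adjusted p = 0.0166), which was at 0.092 at d15 and -0.32 at d35. For the mitochondrial receptor gene Bnip3 it was -0.83 (adjusted p = 0.0207), for Mitf -0.50 (0.0185) and for Tfec -0.35 (0.0171), each high at d15 only. For Tfe3 it was 0.39 (limma adjusted p = 0.0163), and for Tecpr1 0.46 (0.0341), with both lowest at d15. The naive libraries enter both effects and cancel in the difference, which rests on 2 d15 and 3 d35 libraries. Their spread still enters the p-values. With only the d15 and d35 libraries in the fit the calls of Bnip3, Tecpr1 and Tfec ended, and that of Tecpr1 also ended without naive replicate 2.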

How the results depend on the processing

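With 2 or 3 libraries a group, calls near the threshold turned on single libraries. Leaving out 1 library gave 0 to 2 called autophagy genes at d15 (1 with all libraries), 0 to 6 at d35 (7) and 0 to 3 between the times (1). Where d15 was left with 1 library, that library is assumed to vary like the other groups. At d15 the count was 0 with no filter on low values, with edgeR and with limma-voom, 2 with only the 2 groups compared and 3 with DESeq2, which added Ulk3 and Wdfy3. Beside these zeros, 10 of 40 had an unadjusted p under 0.05 by limma on all libraries, as did 2954 of all 11273 genes. At d35 it was 4 with only the 2 groups compared, 7 with edgeR, 8 with DESeq2, 6 with limma-voom and 5 after length correction, and between the times 5 with DESeq2, which added Atg7, Rb1cc1, Sqstm1 and Vmp1. With only the 2 groups compared the d35 calls of Ambra1, Atg4c and Ulk3 ended, and between the times those of Bnip3, Tecpr1 and Tfec. Over all genes tested the d15 count ran from 12 without d15 replicate B to 1451 with DESeq2 (493), the d35 count from 635 without naive replicate 2 to 2412 with DESeq2 (1824), and that between the times from 193 without d15 replicate B to 1368 with DESeq2 (833).

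With the replicate number as a block (naive and d35 libraries only), 2 genes were called at d35, Gabarap and Wdfy3. A clear pairing by number was not seen. Deviations of same-numbered libraries correlated at -0.007, -0.046 and 0.147 over 11273 genes, which are not independent replicates. The last value, of the libraries numbered 3, was the highest of all pairs, but not every library correlated best with its own number. Deviations taken within such small groups cannot exclude a partial pairing. No fit with a block was made for d15, whose columns carry other numbers than the titles.

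Among the 17 autophagy genes chosen by the naming rule, directions reversed for 4 under these alternatives, none of them called. Map1lc3a at d35 (0.030) was -0.24 after length correction and ran from -0.017 to 0.075 with 1 library left out, below 0 without naive replicate 1 or d35 replicate 3 (-0.0005). At d15 Becn1 (0.029) ran from -0.033 to 0.091, below 0 without naive replicate 2 (-0.019) or d15 replicate A. Ulk1 (-0.087) ran from -0.20 to 0.062, above 0 without naive replicate 1 or d15 replicate B (0.027), and Gabarapl1 (-0.054) from -0.12 to 0.014, above 0 without d15 replicate A. The cause was not tested. Of the called genes' log2 fold changes none changed direction. Over 19 alternatives at d35 the call held in 16 for Gabarap, 15 for Ulk2, 14 for Wdfy3, 13 for Atg4a, 10 for Ulk3 and 9 each for Ambra1 and Atg4c. Over 18 alternatives it held in 9 for Atg7 at d15 and in 16 for Ulk2 between the times.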
